A study of Mus musculus with 6 samples.

Results

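The small leucine-rich proteoglycans are secreted matrix proteins, and 10 of their genes were followed here: Bgn, Dcn, Aspn, Lum, Fmod, Prelp, Omd, Ogn, Chad and Podn. Every row of the deposited array table whose only gene symbol in the platform annotation was one of these names was taken. That gave 21 probe sets of the 45037 that were not controls. A probe set is the group of short probes that reads a transcript. Of these, 17 probe sets of 8 genes were above the filter on dim values, which kept 27022 probe sets and 13537 genes in all. Aspn and Chad stayed below that filter on every one of their probe sets and were not tested.

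Small leucine-rich proteoglycans have a core of leucine-rich repeats, and most carry chains of chondroitin, dermatan or keratan sulfate. They bind fibrillar collagen and set the spacing and width of its fibrils, and several bind growth factors of the TGF-beta family. Fibroblasts, smooth muscle and meningeal cells are their usual sources, and in the choroid plexus such cells lie in the stroma beneath the epithelium.

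The samples were labelled as choroid plexus epithelium from whole brain of B10.PL mice, with 3 arrays of RAG-/- mice and 3 of wild type (WT) mice, 1 array per sample, in 3 pairs that share a code in the titles. RAG-/- mice lack a recombinase subunit without which T and B cells do not mature, and the labels do not say which RAG gene was disrupted. Age, sex, pooling and the number of animals per sample are not stated in the labels, so the p-values cover only differences among these samples, part of which may be technical. For pair 1 the descriptions state that the samples had been reversed, which contradicts the genotypes in both titles. Comparisons are therefore given by description, and most of them also by title. Arrays are named by their group in the descriptions, and by title RAG-/- replicate 1 and WT replicate 1 change places.

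Values are log2(intensity + 16) after quantile normalization. Deposited median intensities were between 77.8 and 97.1 per array. Rag1 was dim, at 4.60, 6.92 and 6.31 in RAG-/- replicates 1 to 3, against 6.54, 4.16 and 4.35 in WT replicates 1 to 3. By description its groups overlapped (difference 0.93, exact permutation p = 0.3), and by title they did not (difference 2.22, exact permutation p = 0.1, the smallest possible with 3 against 3). Rag2 differed by 0.05 by description and by -0.68 by title (exact permutation p = 1.0 and 0.6). Transthyretin (Ttr), a thyroid hormone carrier and marker of choroid plexus epithelium, was at 14.69 to 14.83 in RAG-/- samples and 14.72 to 14.83 in WT samples. Markers of other cells were also bright, and the array least like the rest was RAG-/- replicate 2, with a mean correlation of 0.888 with the other 5. Xist, expressed from the inactive X chromosome of females, was at 9.04, 12.20 and 7.43 in RAG-/- replicates 1 to 3, against 12.88, 12.95 and 13.19 in WT replicates. The Y-linked Kdm5d was at 9.26, 4.07 and 9.90 in RAG-/- replicates, against 4.26, 5.51 and 5.21 in WT replicates. RAG-/- replicates 1 and 3 thus carried a Y-linked signal that no WT array had, and these sex-linked signals differed between the groups by description along with genotype. By title RAG-/- replicate 1 counts as WT, so the Y-linked signal then occurred in both groups.

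By description, all 8 members above the filter had lower means in RAG-/- samples than in WT samples. The differences were largest for Bgn at -1.76, Fmod at -1.36 and Dcn at -1.34, followed by Lum at -1.02, Omd at -1.01, Ogn at -0.93, Prelp at -0.47 and Podn at -0.23. No member passed the test: limma called 0 of 27022 probe sets (0.0%) at an adjusted p of 0.05, and the adjusted p of each of these 8 members was 1. By title the same 8 means were also lower in RAG-/- samples, by smaller amounts for every one of them except Prelp and Podn. Arrays were also weighted by their quality, with the differences taken from a fit over all 45037 probe sets, dim ones included. By title these differences turned to 0.03 for Bgn, 0.45 for Dcn, 0.56 for Fmod and 0.56 for Omd. They stayed below 0 for Lum, Ogn, Prelp and Podn. Weighted differences from a fit over the 27022 probe sets are not given, and may differ in size and sign. At an unadjusted p under 0.05, limma counted 192 probe sets (0.711%) by description, and Bgn and Dcn were the members among them at their brightest probe sets. By title it counted 332 (1.23%), and 0 of the 8 members.

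**Figure D1:**
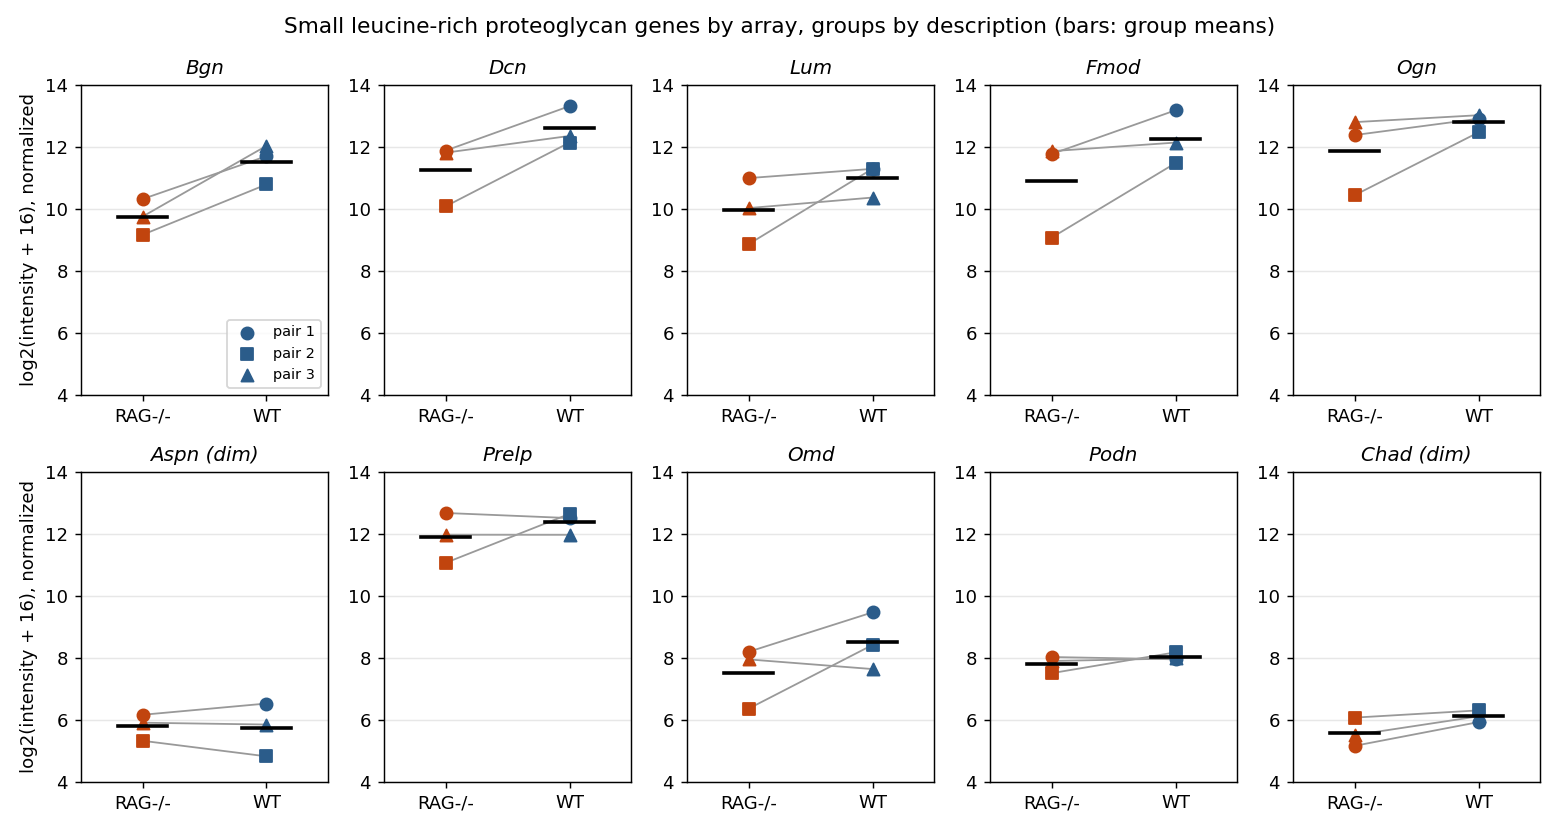
Log2(intensity + 16) after normalization (vertical axis) at the brightest probe set of each of the 10 genes, with RAG-/- arrays on the left and WT arrays on the right, grouped by description. Marker shapes and grey lines give the 3 pairs and black bars the group means. For Bgn and Dcn the 3 RAG-/- arrays lie below the 3 WT arrays, and for the 8 genes above the filter the lowest array is RAG-/- replicate 2 (square).

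Bgn encodes biglycan, a class I member that carries chondroitin or dermatan sulfate chains, binds collagen and, in soluble form, signals through Toll-like receptors. Its promoter is printed because Bgn had the largest difference of the family. It covers 250 bases before and 50 bases after the annotated start at chrX:73483351-73483650 on the plus strand of GRCm38.p6, from RefSeq, with matches to GGGCGG on either strand in capitals, those nearest the start overlapping.
Bgn: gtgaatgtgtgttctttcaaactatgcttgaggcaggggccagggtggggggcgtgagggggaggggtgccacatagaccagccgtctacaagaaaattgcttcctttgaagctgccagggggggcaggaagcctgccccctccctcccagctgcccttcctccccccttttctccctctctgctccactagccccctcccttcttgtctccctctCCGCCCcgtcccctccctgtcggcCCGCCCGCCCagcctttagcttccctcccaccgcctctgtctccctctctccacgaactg

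The Bgn window held 3 GGGCGG matches, and GGGCGG, the core of the GC box, occurred in 35.7% of the 32851 mouse promoters of the same length. Its GC content was 63.7%, against a median of 52.7% over all promoters.

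At probe set 1448323_a_at the deposited intensity of Bgn was 1274, 600.0 and 803 in RAG-/- replicates 1 to 3, against 3298, 1767 and 4344 in WT replicates 1 to 3. On the normalized log2 scale these were 10.32, 9.17 and 9.75 in RAG-/- replicates, against 11.70, 10.79 and 12.04 in WT replicates. Every RAG-/- array was below every WT array. The means were 9.75 ± 0.58 in RAG-/- samples and 11.51 ± 0.64 in WT samples (SD, n = 3 each), a 3.39-fold lower level in RAG-/- (difference -1.76, SE 0.42, 95% interval -2.73 to -0.79, limma adjusted p = 1). Among 13537 genes only 2 had a lower difference.

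By title the Bgn groups overlapped, with means of 10.21 ± 1.33 in RAG-/- samples and 11.05 ± 0.89 in WT samples (SD, n = 3 each) and a difference of -0.84 (limma adjusted p = 0.999936). Without RAG-/- replicate 2 the difference was -1.47 by description and -0.32 by title. Bgn lies on the X chromosome, between Haus7 and Atp2b3 in assembly GRCm38.p6, and the part of the difference in Xist and Kdm5d between the arrays in its own difference was not tested.

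Its other probe sets, 1437889_x_at and 1416405_at, differed by -2.04 and -1.73 by description and by -1.15 and -0.88 by title. The 3 probe sets correlated at 0.98 to 0.99 over the 6 arrays. In all 3 of them every RAG-/- array was below every WT array by description, and the groups overlapped by title.

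Dcn encodes decorin, the class I member with a single glycosaminoglycan chain, which coats collagen fibrils and holds TGF-beta in the matrix. At 1449368_at it was at 11.88, 10.08 and 11.81 in RAG-/- replicates, against 13.32, 12.14 and 12.35 in WT replicates. The RAG-/- arrays all lay below the WT arrays, with WT replicate 1 the highest. The means were 11.26 ± 1.02 in RAG-/- samples and 12.60 ± 0.63 in WT samples (SD, n = 3 each), and the difference was -1.34 (SE 0.52, 95% interval -2.54 to -0.15, limma adjusted p = 1). Without RAG-/- replicate 2 it was -0.76. By title the Dcn difference was -0.39, and it turned to 0.44 without RAG-/- replicate 2.

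Bgn and Dcn were therefore the 2 of 8 members whose RAG-/- arrays lay wholly below the WT arrays by description, where this held for 1.41% of the 13537 genes. By title it held for 1 of 8, Podn, against 2.53% of genes. In 0 of 8 did the RAG-/- arrays lie wholly above, where 1.69% of genes did by description and 2.2% by title. The second Dcn probe set, 1441506_at, was dim, with deposited intensities of 4.53 to 68.9 in RAG-/- samples and 4.53 to 119 in WT samples. It correlated at -0.45 with the brighter one and differed by 0.06.

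Aspn encodes asporin, a class I member with a stretch of aspartates and no glycosaminoglycan chain. Its brighter probe set, 1448421_s_at, was at 6.16, 5.32 and 5.90 in RAG-/- replicates, against 6.52, 4.82 and 5.84 in WT replicates. The groups overlapped, and the difference was 0.07 by description and 0.31 by title. The other Aspn probe set, 1416652_at, differed by -0.81 and -0.96 under these readings, and the 2 correlated at -0.08, so these dim values gave no common direction.

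Lum encodes lumican, a class II member that carries keratan sulfate and sets fibril width, best known in the cornea. It was at 10.99, 8.86 and 10.03 in RAG-/- replicates, against 11.29, 11.30 and 10.37 in WT replicates. RAG-/- replicate 2 was far below the others and the groups overlapped, since RAG-/- replicate 1 exceeded WT replicate 3. The difference was -1.02 by description and -0.82 by title (limma adjusted p = 1 and 0.999936), and when RAG-/- replicate 2 was left out it was -0.47 by description and -0.23 by title.

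Fmod encodes fibromodulin, the class II member that steers early fibril growth and collagen crosslinking. Its promoter is printed because Fmod varied most of the members over the arrays, at chr1:134037004-134037303 on the plus strand of GRCm38.p6, from RefSeq, with matches to CAGAC, a Smad-binding core, on either strand in capitals.
Fmod: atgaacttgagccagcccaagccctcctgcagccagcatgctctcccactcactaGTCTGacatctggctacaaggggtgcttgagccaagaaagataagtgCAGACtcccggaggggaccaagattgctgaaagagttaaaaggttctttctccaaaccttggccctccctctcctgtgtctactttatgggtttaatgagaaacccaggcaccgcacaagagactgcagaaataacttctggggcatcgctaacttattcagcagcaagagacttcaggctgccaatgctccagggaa

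The Fmod window held 2 CAGAC matches, and that short motif occurred in 49.6% of the promoters. At 1456084_x_at Fmod was at 11.77, 9.07 and 11.86 in RAG-/- replicates, against 13.18, 11.48 and 12.14 in WT replicates. RAG-/- replicates 1 and 3 lay between WT replicates 2 and 3, so the groups overlapped, and WT replicate 1 was the highest. The means were 10.90 ± 1.58 in RAG-/- samples and 12.27 ± 0.86 in WT samples (SD, n = 3 each), and the difference was -1.36 (SE 0.76, limma adjusted p = 1).

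Without RAG-/- replicate 2 the Fmod difference was -0.45, and by title it was -0.42, which turned to 0.73 without that array. All 6 Fmod probe sets were lower in RAG-/- samples, with differences of -1.36 to -1.02 by description and -0.42 to -0.07 by title. They correlated with each other at 0.927 to 0.998 over the arrays. Over the 6 arrays the SD of Fmod at its brightest probe set was 1.36, higher than that of 98.6% of the probe sets above the filter.

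Prelp encodes a class II protein with a basic, heparin-binding end that anchors basement membranes to collagen. It was at 12.67, 11.06 and 11.97 in RAG-/- replicates, against 12.50, 12.64 and 11.96 in WT replicates. RAG-/- replicate 1 was the highest array and RAG-/- replicate 2 the lowest, and the groups overlapped. The difference was -0.47 by description and -0.58 by title, and by description it shrank to -0.05 when RAG-/- replicate 2 was left out and was -0.86 when RAG-/- replicate 1 was. By title it was -0.19 when RAG-/- replicate 2 was left out. The second Prelp probe set, 1416322_at, differed by -0.38 by description and -0.77 by title.

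Omd encodes osteomodulin, a class II keratan sulfate proteoglycan first described in bone. It was at 8.19, 6.36 and 7.94 in RAG-/- replicates, against 9.46, 8.41 and 7.63 in WT replicates. WT replicate 3 lay below RAG-/- replicates 1 and 3, so the groups overlapped. The difference was -1.01 by description and -0.16 by title, and by description it was -0.43 when RAG-/- replicate 2 was left out and -0.53 when WT replicate 1 was. By title, leaving out RAG-/- replicate 2 turned it to 0.63, leaving out WT replicate 2 gave 0.01 and leaving out WT replicate 1 gave -0.93.

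Ogn encodes osteoglycin, also called mimecan, a class III member. Its promoter is printed because it was the highest-ranked member by brightness, at chr13:49607765-49608064 on the plus strand of GRCm38.p6, from RefSeq, with matches to TATAAA and GGAATG on either strand in capitals, those of TATAAA overlapping.
Ogn: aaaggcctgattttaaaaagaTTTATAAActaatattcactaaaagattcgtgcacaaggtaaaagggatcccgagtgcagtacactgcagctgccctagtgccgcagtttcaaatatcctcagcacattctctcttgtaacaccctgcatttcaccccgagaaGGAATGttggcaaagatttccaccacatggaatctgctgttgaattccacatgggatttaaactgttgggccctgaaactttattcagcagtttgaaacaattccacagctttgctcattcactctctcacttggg

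The Ogn window held 2 TATAAA matches, where 13.6% of promoters held TATAAA, and 1 match to GGAATG, a TEAD-binding core, where 14.7% held it. At 1419663_at Ogn was at 12.38, 10.44 and 12.80 in RAG-/- replicates, against 12.91, 12.47 and 13.02 in WT replicates. RAG-/- replicate 3 lay within the WT range and RAG-/- replicate 2 was far below it. The difference was -0.93 by description (limma adjusted p = 1), and -0.21 without RAG-/- replicate 2. By title it was -0.57, and 0.23 without that array. The other Ogn probe set, 1419662_at, correlated with it at 0.85 and differed by -0.49 by description and -0.61 by title.

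Podn encodes podocan, a class V member that restrains smooth muscle growth in mouse arteries. It was at 8.02, 7.5 and 7.89 in RAG-/- replicates, against 7.95, 8.17 and 7.97 in WT replicates. It varied least of the members, with an SD of 0.23 over the arrays, and only RAG-/- replicate 2 was apart. The difference was -0.23 by description, with overlapping groups, and -0.28 by title, where all 3 RAG-/- arrays were lower. Leaving out RAG-/- replicate 2 gave -0.07 by description and -0.14 by title.

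Chad encodes chondroadherin, a class IV protein of cartilage that binds integrins. It was dim, at 5.16, 6.07 and 5.50 in RAG-/- replicates, against 5.92, 6.30 and 6.11 in WT replicates. The groups overlapped through RAG-/- replicate 2, which for this gene was the highest RAG-/- array. The difference was -0.54 by description and -0.02 by title. Leaving out 1 array by title gave values on either side of 0, between -0.37 and 0.20.

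By mean brightness Ogn stood at the 96.9th percentile of all probe sets other than controls, followed by Prelp at 96.4, Dcn at 95.7, Fmod at 94.5, Bgn at 89.7, Lum at 88.7, Omd at 66.6, Podn at 65.8, Chad at 35.4 and Aspn at 33.6. Brightness depends on the probes as well as on the transcript, so this order places each probe set on the array and does not rank the genes by abundance.

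Of the 21 probe sets, 19 had lower means in RAG-/- samples under either reading, as did 17 of the 17 above the filter. The 2 others were the dim sets of Dcn and Aspn. The 17 include 6 sets of Fmod and 3 of Bgn on the same arrays, so their directions are not independent. Counted once per gene, 8 of the 8 members above the filter were lower under either reading. Over all genes above the filter, 51.1% were lower by description and 53.9% by title. The median difference over the 10 genes was -0.97 by description and -0.41 by title, against -0.01 and -0.02 over all genes above the filter. Over the 8 members above the filter alone it was -1.01 and -0.50. Leaving out RAG-/- replicate 2 gave medians over the 10 genes of -0.44 by description and 0.05 by title, so by title the lower median rested on that array. Ranked from the lowest difference by description among 13537 genes, Bgn was at place 3, Fmod at 13, Dcn at 14, Lum at 62, Omd at 67, Ogn at 94, Prelp at 791 and Podn at 2659. By title Bgn was at place 91 and Lum at 100, while Fmod was at 1143, Dcn at 1390 and Omd at 4262.

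**Figure D2:**
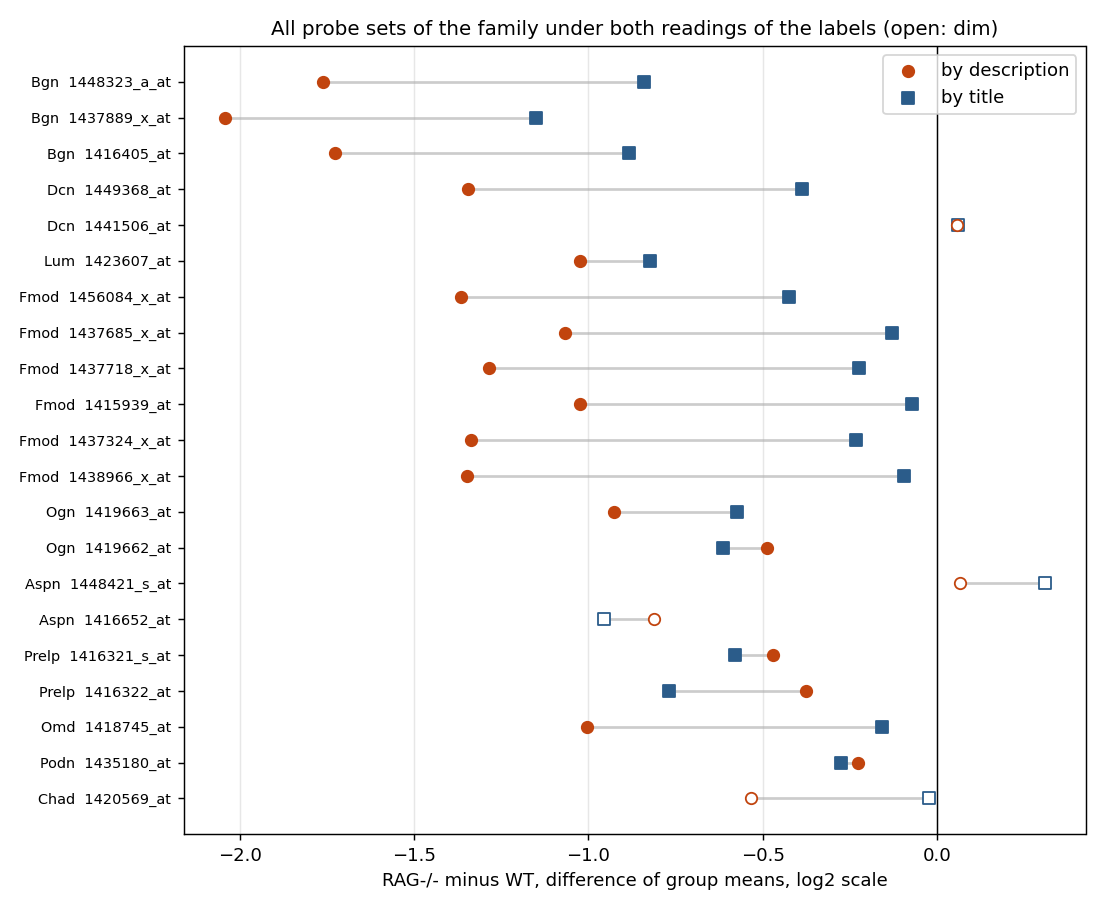
Difference of group means, RAG-/- minus WT, on the log2 scale (horizontal axis) for each of the 21 probe sets (rows), by description (circles) and by title (squares), with open symbols for dim probe sets. Of the 21, 19 lie left of 0 under either reading. The Bgn, Dcn, Fmod and Omd sets above the filter lie nearer to 0 by title.

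Within pairs, RAG-/- minus WT by description, Bgn differed by -1.38, -1.62 and -2.28 in pairs 1 to 3. Dcn differed by -1.43, -2.06 and -0.54, and Fmod by -1.41, -2.41 and -0.28. These 3 genes were lower in every pair, Bgn most in pair 3 and the other 2 most in pair 2.

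Lum differed by -0.30, -2.43 and -0.34 in pairs 1 to 3, and Ogn by -0.53, -2.03 and -0.22. Omd differed by -1.27, -2.06 and 0.31, and Prelp by 0.16, -1.58 and 0.00. Podn, Aspn and Chad stayed within -0.77 to 0.50 in every pair.

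Lum and Ogn were thus also lower in every pair, which made 5 of the 8 members above the filter, where 11.3% of genes were. By title, with the sign of pair 1 turned, it was 1 of 8, Podn, where 15.0% of genes were. The median over the 8 members above the filter was -0.90, -2.04 and -0.25 in pairs 1 to 3, against 0.03, -0.04 and -0.02 over all genes above the filter. Pair 2, which holds RAG-/- replicate 2, thus had the lowest median, and 8 of 8 members were lower there, where 52.5% of genes were. In pair 1 it was 6 of 8, where 46.9% of genes were lower, and in pair 3 also 6 of 8, where 53.4% were.

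With the pair as a block, limma called 0 of 27022 probe sets (0.0%) by description and 1 (0.0037%) by title, and no member in either. At an unadjusted p under 0.05 the blocked fit counted 636 probe sets (2.35%) by description, with Bgn, Dcn, Fmod and Ogn among them, and 1118 (4.14%) by title, with 0 of 8 members. The blocked difference of Bgn by description was -1.76 with an SE of 0.24 (95% interval -2.35 to -1.18, limma adjusted p = 0.999562). By title it was -0.84 with an SE of 0.64 (95% interval -2.37 to 0.68, limma adjusted p = 0.925837).

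**Figure D3:**
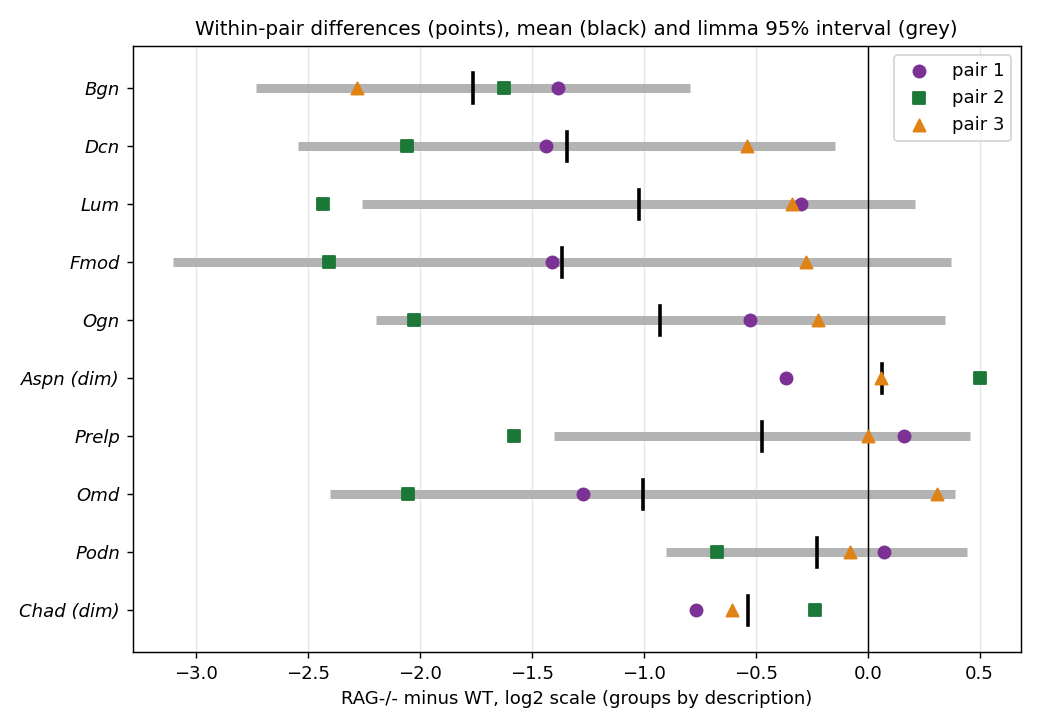
Within-pair differences, RAG-/- minus WT by description, on the log2 scale (horizontal axis) for the 10 genes (rows), with 1 point per pair, a black line at the mean and a grey bar for the 95% interval of limma without the block, drawn for the 8 genes above the filter. Bgn, Dcn, Lum, Fmod and Ogn lie left of 0 in all 3 pairs, and for 7 of the 8 genes above the filter pair 2 is farthest to the left.

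RAG-/- replicate 2 was the lowest of the 6 arrays for 8 of the 8 members above the filter, where it was the lowest for 31.1% of all genes. WT replicate 1 was the highest for 3 of them, where it was the highest for 10.6% of all genes. WT replicate 2 was the highest for 2 (12.3% of genes), WT replicate 3 for 2 (19.4%) and RAG-/- replicate 1 for 1 (16.3%). With each gene centred on its own mean, the mean of the 8 members was 0.15, -1.56 and -0.12 in RAG-/- replicates 1 to 3, against 0.91, 0.30 and 0.31 in WT replicates. RAG-/- replicate 1 lay closer to WT replicates 2 and 3 than to RAG-/- replicate 2.

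The 8 members above the filter correlated with each other over the arrays. All 28 pairs of genes had a Pearson r above 0, between 0.53 and 0.98, with a median of 0.79, and 14 were at 0.8 or more. Spearman's rho had a median of 0.57 and ran between -0.09 and 0.94. After adjustment over the 28 pairs, 0 passed by Pearson r and 0 by Spearman's rho (exact permutation of 6 arrays). Without RAG-/- replicate 2 the median r was 0.39, and 20 of the 28 pairs stayed above 0. Leaving out the 2 arrays farthest from the median of the first gene gave a median of 0.37, again with 20 of 28 above 0. The common height of the correlations thus rested in large part on RAG-/- replicate 2.

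Dcn and Fmod correlated most closely (r = 0.98, exact permutation p = 0.0125, adjusted p = 0.0778, Spearman's rho 0.77, exact permutation p = 0.103, adjusted p = 0.288, n = 6 arrays), and r was 0.91 without RAG-/- replicate 2 and 0.32 without the 2 farthest arrays. Lum and Prelp reached the same r of 0.98 (rho 0.77), with 0.92 without RAG-/- replicate 2 and 0.88 without the 2 farthest. Ogn and Prelp, the members with the highest brightness, had an r of 0.73 over all arrays and -0.75 without RAG-/- replicate 2. Bgn and Dcn, both class I, had an r of 0.84 and 0.74 without that array.

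**Figure D4:**
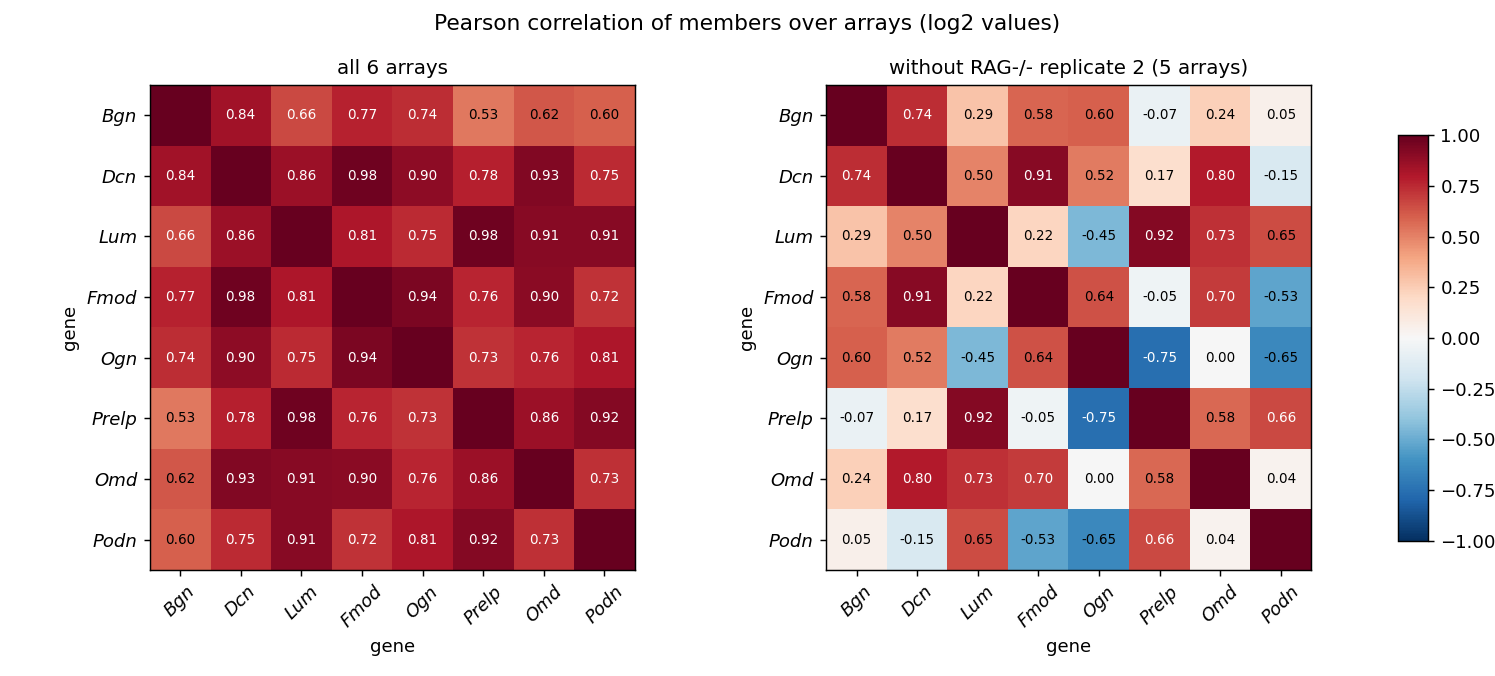
Pearson r of the log2 values between the 8 genes above the filter (rows and columns), over all 6 arrays on the left and over the 5 arrays without RAG-/- replicate 2 on the right, coloured between -1 and 1. On the left all 28 pairs are above 0, and on the right 20 are, with Dcn and Fmod (0.91) and Lum and Prelp (0.92) still high.

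Several members are neighbours in the genome of assembly GRCm38.p6. Prelp and Fmod adjoin on chromosome 1, Dcn and Lum on chromosome 10, and Aspn, Omd and Ogn follow each other on chromosome 13 beside Ecm2. The correlation between neighbours was 0.76 for Prelp and Fmod, 0.86 for Dcn and Lum and 0.76 for Omd and Ogn, within the range of the other pairs. Without RAG-/- replicate 2 it was -0.05 for Prelp and Fmod, 0.50 for Dcn and Lum and 0.00 for Omd and Ogn. Of the 10 genes, 8 matched the promoter table, with 9 promoters, while Dcn and Lum did not. The motif TATAAA was found in 3 of the 8 genes, as was GGGCGG in 3 and CAGAC in 3, while GGAATG was found in 1. TGANTCA, an AP-1 site searched on both strands like the rest, was in 0 of the 8, where 7.81% of all promoters held it.

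The genes whose pattern over the 6 arrays was most like the mean of the 8 members were Pdcd6ip (r = 0.989), Tgfbi (0.989) and Eva1b (0.988), among 13529 other genes of which 224 reached 0.9. Closest to Bgn were Baiap2 (r = 0.988), Olfr64 (0.979) and Gimap8 (0.977). Closest to Dcn were Lpar4 (r = 0.996), Gpc6 (0.995) and Eln, which encodes elastin (0.985), and closest to Fmod were Mrvi1 (0.998), Efemp1 (0.995) and Vegfc (0.991). Lum was most like Upb1 (r = 0.992), Uqcc3 (0.990) and Col8a2 (0.987), and Prelp most like Gstm2 (0.994), Copz2 (0.992) and Uqcc3 (0.992). For Ogn these genes were Lpgat1 (r = 0.995), Nrp1 (0.994) and Cetn3 (0.992), for Omd Mrc2 (0.998), Tes (0.987) and Fcho2 (0.979), and for Podn Csrp2 (0.987), Iars2 (0.985) and Derl3 (0.983). These are descriptions over 6 arrays that include RAG-/- replicate 2, and are not tested.

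The collagens that these proteins bind were next. Of 12 fibrillar and fibril-associated collagens above the filter, 11 had lower means in RAG-/- samples by description (median -0.83), and by title 7 of 12 (median -0.05), and 0 passed the test in either direction under either reading. Col3a1, a fibrillar collagen of soft tissue, was at 9.78 ± 0.78 in RAG-/- samples and 11.27 ± 0.75 in WT samples (SD, n = 3 each), a difference of -1.49 by description and -0.07 by title. Col1a2, a chain of collagen I, was at 11.58 ± 0.68 in RAG-/- samples and 12.67 ± 0.36 in WT samples (SD, n = 3 each), a difference of -1.08 by description and -0.28 by title. Col6a2 differed by -0.97 by description and, in the other direction, by 0.58 by title.

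Enzymes and helpers of collagen processing and crosslinking were mixed, with 7 of 13 lower by description (median -0.20) and 6 of 13 by title (median 0.03). Pcolce, which speeds procollagen cleavage, differed by -0.46 by description and -0.37 by title, and Serpinh1, the collagen chaperone, by -0.48 and -0.80. No gene of the list passed the test.

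Of the growth factors and receptors known to bind family members, 10 of 12 had lower means by description (median -0.38) and 9 of 12 by title (median -0.13), and 0 passed. The TGF-beta receptors Tgfbr2 and Tgfbr3 differed by -0.48 and -0.36 by description and by -0.36 and -0.44 by title. Of the innate receptors, integrins and other partners, 6 of 10 were lower by description and 4 of 10 by title, with medians of -0.10 and 0.01. Tlr2, a receptor for soluble biglycan, differed by 0.11 by description and 0.12 by title.

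The 22 measured genes of glycosaminoglycan chain synthesis, whose products build the sulfated chains, had a median of 0.02 by description and -0.04 by title, with 10 and 12 of 22 lower and 0 past the test. Chsy1, a chondroitin sulfate synthase, differed by -0.50 by description and 0.07 by title, and Papss1, which makes the sulfate donor, by 0.07 and -0.04. Proteases that cleave the family were lower in 7 of 8 by description (median -0.30) and 5 of 8 by title (median -0.05), and 0 passed. Mmp2, a gelatinase, differed by -0.49 by description and -0.36 by title.

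Of 9 other small leucine-rich proteoglycans that were listed, 7 were on the array and 4 above the filter, and 2 of the 4 were lower under either reading, with 0 past the test. Ecm2 differed by -0.39 by description and 0.05 by title, Epyc by -0.32 and -0.01, Nyx by 0.19 and -0.31, and Chadl by 0.51 and 0.22. Of 13 other matrix proteoglycans, 5 were lower by description (median 0.02) and 3 by title (median 0.34), and 0 passed. Bcan, the brain proteoglycan brevican, differed by 0.75 by description and 0.90 by title, and Srgn, the granule proteoglycan serglycin of blood cells, by -0.85 and 0.21.

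Markers of the cells that make matrix also had lower means by description. Of 17 fibroblast markers above the filter, 15 had lower means in RAG-/- samples by description (median -0.63) and 11 by title (median -0.09). Their mean was 9.23, 8.54 and 9.17 in RAG-/- replicates 1 to 3, against 10.10, 9.19 and 9.48 in WT replicates. It was lowest in RAG-/- replicate 2 and highest in WT replicate 1, and 5 of these markers (Col1a1, Col1a2, Col3a1, Col6a1 and Col6a3) are also counted among the collagens. Meningeal markers were lower in 13 of 14 by description (median -0.72) and 4 of 14 by title (median 0.29). Their mean was 9.29, 8.04 and 9.14 in RAG-/- replicates, against 10.80, 8.79 and 8.995 in WT replicates, with WT replicate 1 far above the rest.

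Pericyte and smooth muscle markers were lower in 10 of 11 by description (median -0.47) and 4 of 11 by title (median 0.22), and endothelial markers in 10 of 10 (median -0.46) and 8 of 10 (median -0.12). Choroid plexus epithelium markers were lower in 14 of 14 by description (median -0.19) and 13 of 14 by title (median -0.46). The mean of the epithelial markers was 13.63, 12.56 and 13.41 in RAG-/- replicates, against 13.33, 13.56 and 13.37 in WT replicates, with only RAG-/- replicate 2 apart. No marker passed the test under either reading.

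Markers of brain tissue were mixed. Oligodendrocyte markers were higher in 11 of 11 under either reading, with medians of 1.08 by description and 1.24 by title, and their mean was 9.99, 11.54 and 11.58 in RAG-/- replicates, against 10.35, 10.04 and 9.72 in WT replicates. The mean of 12 neuron markers was 10.05, 11.84 and 8.70 in RAG-/- replicates, against 10.22, 10.74 and 9.22 in WT replicates, highest in RAG-/- replicate 2. Astrocyte markers had medians of 0.09 and 0.33, ependymal and ciliary markers 0.02 and 0.04, macrophage and microglia markers -0.29 and -0.01, and cartilage and bone markers 0.12 and 0.12, by description and by title in that order. Of 8 T and B cell markers on the array only Cd8a was above the filter, at a difference of 0.08 by description and 0.05 by title.

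In these samples of mixed cells, fewer cells of a type and less RNA per cell cannot be told apart, and the part of cell makeup in the lower family means was not tested.

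**Figure D5:**
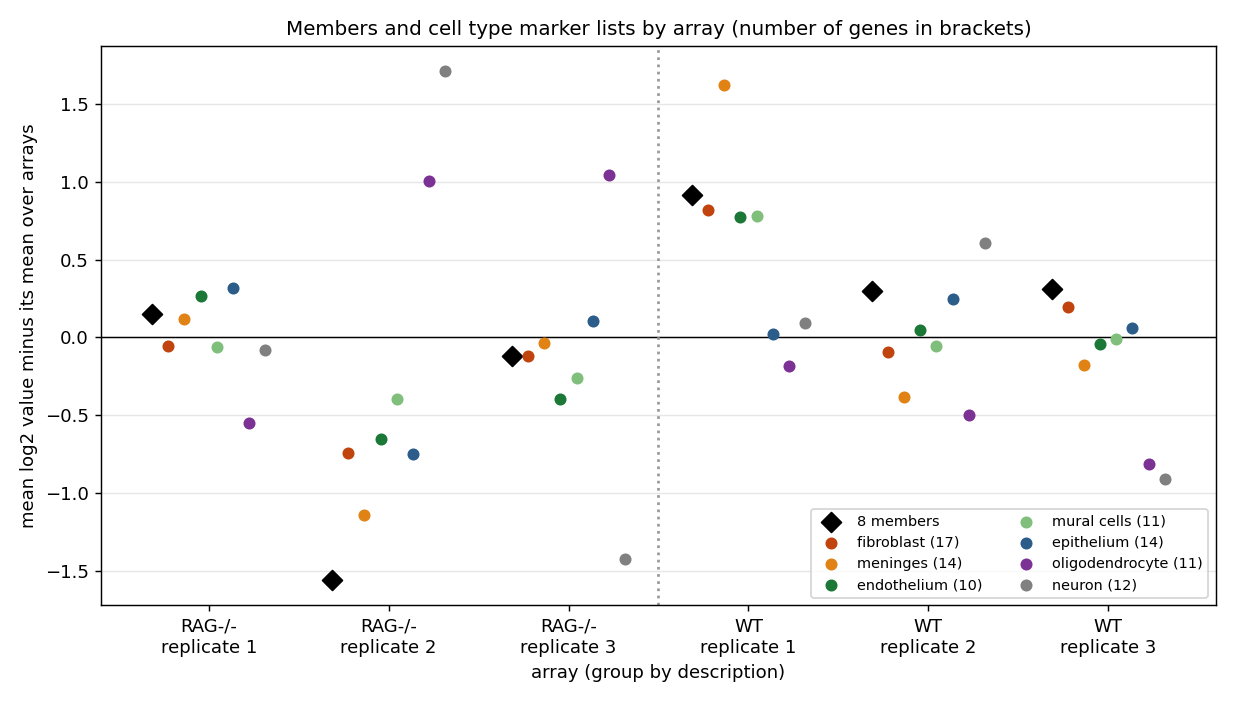
Mean log2 value of the 8 members above the filter (diamonds) and of 7 marker lists (circles), each minus its own mean over the 6 arrays (vertical axis), for each array (horizontal axis, RAG-/- on the left and WT on the right by description). The members are lowest in RAG-/- replicate 2, at -1.56, where neuron and oligodendrocyte markers are high and fibroblast, meningeal, endothelial, mural and epithelial markers low, and highest in WT replicate 1, at 0.91.

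Most members correlated with the means of both the fibroblast and the epithelial markers, and no test compared the lists. The mean of the 8 members was also set against each cell type list. Only the pericyte and smooth muscle mean passed, by Spearman's rho alone (1.0, exact permutation p = 0.00278, adjusted p = 0.0333). Its r was 0.78 (exact permutation, adjusted p = 0.269), and 0.96 without its 2 farthest arrays. The fibroblast mean had a rho of 0.94 (exact permutation, adjusted p = 0.1), and an r of 0.92, or 0.57 without its 2. The epithelial mean had a rho of 0.03, and an r of 0.82, or -0.42 without its 2. Against the mean of the fibroblast markers, Dcn had the highest r, at 0.97 (Spearman's rho 0.94), followed by Fmod at 0.94 (rho 0.83), Omd at 0.89 (rho 0.60) and Bgn at 0.83 (rho 0.89). Ogn was at 0.80 (rho 0.71), Lum at 0.75 (rho 0.60), Prelp at 0.65 (rho 0.37) and Podn at 0.56 (rho 0.43). The exact permutation p for Dcn was 0.0194 (rho 0.0167), and 0.0844 (rho 0.233) adjusted over the 16 relations computed between members and the fibroblast and epithelial means. No relation passed that adjustment. Without the 2 arrays farthest from the median of the marker mean, r was 0.81 for Dcn, 0.78 for Fmod, 0.92 for Bgn, 0.68 for Ogn and between -0.77 and -0.18 for Omd, Prelp, Lum and Podn, so the relations of these last 4 rested on those arrays. Against the epithelial mean Podn had an r of 0.95 (rho 0.77), Prelp of 0.91 (rho 0.83) and Lum of 0.85 (rho 0.49), and Bgn of 0.49 (rho 0.09). Ogn had an r of 0.85 (rho -0.09), Fmod of 0.77 (rho -0.09), Dcn of 0.72 (rho 0.03) and Omd of 0.71 (rho 0.37) there. Without the 2 arrays farthest from its median, r against the epithelial mean was 0.83 for Podn, 0.44 for Prelp and 0.25 for Lum, and below 0 for the other 5 members, between -0.94 for Ogn and -0.23 for Omd.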

How the data were processed

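The authors deposited 1 linear intensity per probe set and array. The labels name neither software nor scaling, and the values show each array scaled to a trimmed mean of 500 with the outer 2% at either end set aside. After removal of 64 control probe sets, log2(intensity + 16) was computed, and arrays were quantile normalized because their 75th percentiles differed by 0.232, over a limit of 0.2. The dimmest 40% of probe sets by mean log2 value were not tested. Of the rest, the brightest stood for each gene, and probe sets with several symbols were not named. Of 34945 probe sets with 1 symbol, 34741 matched the gene table of GRCm38.p6, and the listed Wisp1 and Ctgf were matched as Ccn4 and Ccn2.

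Differences, RAG-/- minus WT, were fitted over all 27022 probe sets with limma 3.58.1 in R 4.3.3 (lmFit, eBayes with an intensity trend), two-sided, with Benjamini-Hochberg adjustment and a threshold of 0.05. The differences with array weights came instead from a fit over all 45037 probe sets, with its own weights. Sample correlations used exact permutations of the 6 arrays, two-sided. The fit was tested on simulated data. Genes outside the family were drawn from the 3 highest in mean level of each list, not all of which are named, and the 3 most like each member. Epyc and the medians over the 8 members above the filter were added after the data had been seen. The members and lists were chosen with earlier results of these data known. The number of arrays limits the precision.

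After subtraction of group means by description, arrays sharing a title code correlated at 0.29, 0.39 and 0.58, so the codes were taken to pair the samples. Other arrays of opposite groups correlated at -0.42 to 0.01. Deviations within a group sum to 0, so positive values within pairs lower these others, which add no separate support. Alternatives changed the normalization, the pseudocount, the filter, the probe set rule, the array weights and the samples left out.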

Additional observations from a re-analysis of the deposited data

How the results depend on the processing

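No member passed the test under any alternative by description. The count of probe sets past the threshold by description stayed at 0 except without RAG-/- replicate 2, where it was 4, so leaving out 1 array gave 0 to 4. By title it was 0, against 1 with the replicate block and 2 with array weights, and 0 to 0 leaving out 1 array. Beyond the counts given in the report, the block changed no call of a member. The median over the 10 genes by description ran between -0.999 and -0.68 under the other alternatives and between -1.27 and -0.44 leaving out 1 array. By title it was 0.05 with array weights, -0.999 without pair 1 and -0.97 to 0.05 leaving out 1 array. Of 110 member differences, under alternatives by description that kept every array or left out pair 1 and in the fits by title with and without the block, 109 kept their sign. Part of this count was fixed in advance. The block and the absence of a filter cannot change a difference, nor can the mean over probe sets for a gene with 1 probe set. By description Aspn turned to -0.37 with the mean over its probe sets, and to -0.39 at the lowest and 0.46 at the highest leaving out 1 array. By title, array weights turned Bgn to 0.03, Dcn to 0.45, Fmod to 0.56, Omd to 0.56 and Chad to 0.07. A pseudocount of 1 turned Chad to 0.01 by title, and the mean over probe sets turned Aspn to -0.32. The differences and medians with array weights came from a fit over all 45037 probe sets. The counts past the threshold with array weights came from a fit over 27022, whose weighted differences are not given. Leaving out 1 array, the difference of Bgn ran between -2.12 and -1.47 by description and between -1.59 and -0.32 by title. The median correlation between members was 0.57 by Spearman's rho, 0.72 to 0.84 under the other alternatives and 0.39 to 0.87 leaving out 1 array. The cause of these changes was not tested. Signals near background limit Aspn, Chad and the second Dcn probe set.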
